A study of Rattus norvegicus with 4 samples.

Results

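The genes described here are 10 chaperones and disulfide isomerases of the endoplasmic reticulum, taken from 10411 named genes measured in rat liver. They are Hspa5, Hyou1, Hsp90b1, Dnajc3, Calr, Canx, P4hb, Pdia3, Pdia4 and Pdia6. Every probe set whose annotation gave 1 gene symbol equal to one of these names was taken, which gave 14 probe sets. The livers came from 4 male Sprague-Dawley rats aged 10 to 12 weeks that received no treatment, and each rat had its own Affymetrix expression array. All rats formed 1 control group, so no groups were compared and no p-value is given. A difference between rats cannot be told apart from a difference between arrays, and in whole liver fewer cells of a type cannot be told apart from less RNA per cell.

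Proteins bound for secretion or for membranes enter the endoplasmic reticulum unfolded. Chaperones of the Hsp70 and Hsp90 families hold them, the lectin chaperones calnexin and calreticulin retain those that carry trimmed sugar chains, and disulfide isomerases make and rearrange their cysteine bonds. Hepatocytes secrete most plasma proteins and depend on this machinery. When unfolded proteins accumulate, sensors in the membrane start the unfolded protein response, which raises transcription of chaperone genes through factors such as ATF6 and XBP1 that act at the endoplasmic reticulum stress response element.

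That element can be read in the promoters of several of these genes, which is why their sequences are shown. The RefSeq promoter windows of the rat assembly GRCr8 hold 250 bases before and 50 bases from the annotated start, and 8 of the 10 genes had a window, all but Pdia3 and Pdia6. The element, called ERSE, was searched on both strands as CCAAT and CCACG with any 9 bases between them. It was found in the windows of 5 of these 8 genes, Hspa5, Hsp90b1, Dnajc3, Calr and Canx. Over all genes with a window, these 5 included, it was found in 21 of 27457, or 0.0765%. A shorter form, ERSE-II, was searched, also on both strands, as ATTGG and CCACG with any 1 base between them. Among the 8 genes it was found in Hyou1 alone, against 17 of 27457 genes with Hyou1 included, or 0.0619%. No gene of the 8 matched both forms, although both end in the same CCACG. P4hb and Pdia4 matched neither form, which says only that these letters are not in the window. The search took exact letters, so copies with other bases in the fixed places were not counted in any gene. Each match is listed 5′ to 3′ in the direction of the motif, with its fixed letters in capitals.
Hspa5 (ERSE): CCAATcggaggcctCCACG
Hsp90b1 (ERSE, far copy): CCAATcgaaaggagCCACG
Hsp90b1 (ERSE, near copy): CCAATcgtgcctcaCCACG
Dnajc3 (ERSE): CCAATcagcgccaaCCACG
Calr (ERSE): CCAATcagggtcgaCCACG
Canx (ERSE): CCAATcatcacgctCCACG
Hyou1 (ERSE-II, far copy): ATTGGcCCACG
Hyou1 (ERSE-II, near copy): ATTGGgCCACG

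The matches lay at different distances from the start. In Hspa5 the element spanned bases -43 to -25 from the start (chr3:38452973-38452991, gene on the plus strand). Hsp90b1 (minus strand) carried a copy at -176 to -158 (chr7:23012451-23012469) and an inverted one at -72 to -54 (chr7:23012347-23012365). The Dnajc3 match lay at -133 to -115 (chr15:102432534-102432552, plus strand). That of Canx at -230 to -212 (chr10:35158069-35158087, minus strand) and that of Calr, inverted, at -232 to -214 (chr19:40213135-40213153, plus strand) were near the far edge of the window. Both ERSE-II copies of Hyou1 (plus strand) were inverted, at -188 to -178 (chr8:53602694-53602704) and -88 to -78 (chr8:53602794-53602804), in 1 of its 2 annotated windows. The 250 bases before the start are printed for Hspa5 and Hsp90b1 on the strand of the gene, with each ERSE, from CCAAT to CCACG or its reverse complement, in capitals. They show the element beside the gene with the largest difference between rats and beside the gene with 2 copies of ERSE. The Hspa5 stretch is chr3:38452766-38453015 on the plus strand of GRCr8, and the Hsp90b1 stretch is chr7:23012294-23012543 on the minus strand.
Hspa5: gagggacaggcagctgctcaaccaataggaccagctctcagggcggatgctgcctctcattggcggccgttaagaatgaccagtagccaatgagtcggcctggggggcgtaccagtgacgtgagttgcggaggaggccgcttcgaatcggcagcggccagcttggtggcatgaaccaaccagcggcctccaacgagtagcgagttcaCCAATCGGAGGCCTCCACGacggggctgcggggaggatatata
Hsp90b1: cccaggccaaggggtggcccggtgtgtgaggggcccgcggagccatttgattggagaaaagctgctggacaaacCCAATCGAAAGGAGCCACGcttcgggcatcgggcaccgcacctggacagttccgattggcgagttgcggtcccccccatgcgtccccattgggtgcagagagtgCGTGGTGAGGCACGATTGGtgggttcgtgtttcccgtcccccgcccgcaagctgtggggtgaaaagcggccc

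**Figure D1:**
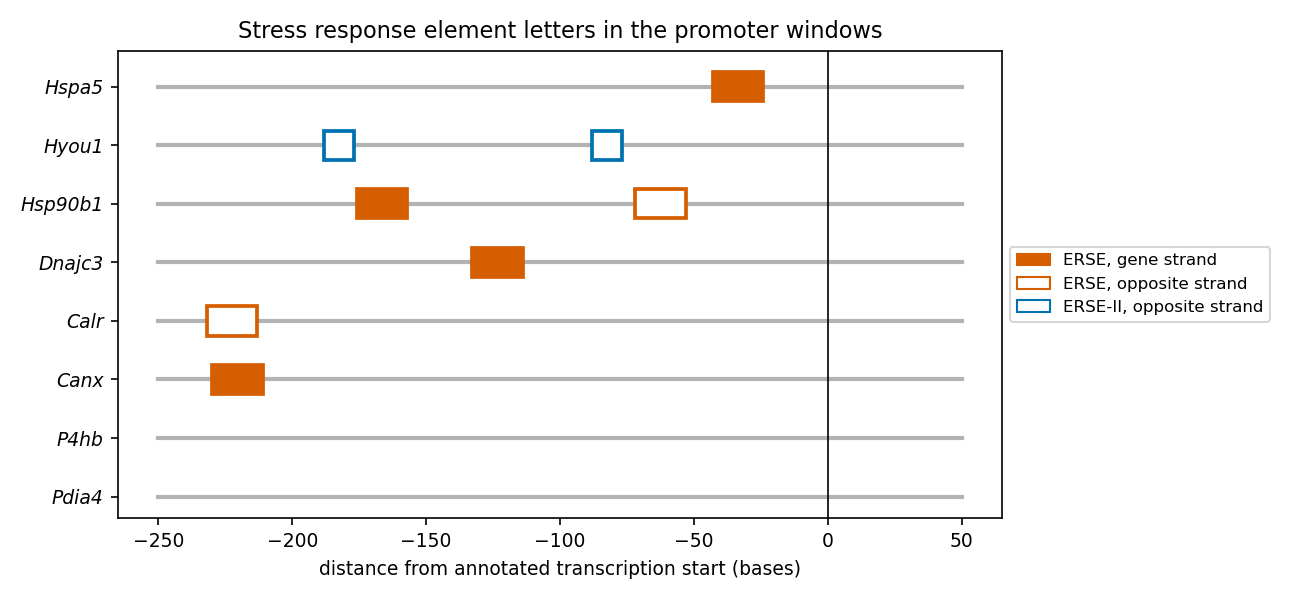
Positions of the stress response element letters in the promoter windows of 8 chaperone and isomerase genes, in bases from the annotated transcription start. Orange boxes are ERSE and blue boxes ERSE-II, filled on the strand of the gene and open on the opposite strand; the Hyou1 row is the window that holds matches, and P4hb and Pdia4 have no box.

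Signals are log2 values, so a difference of 1 is a doubling, and a signal depends on the probes as well as on the transcript. Signals of different probe sets are therefore not relative amounts. Each gene was read through the brightest of its probe sets by mean, and it counted as above background if that mean exceeded 8.24. This level is the 95th percentile over the means of 72 probe sets for genes that serve brain, muscle, testis or eye. All 10 genes lay above this level, against 50.7% of the 10411 named genes. The background list leaves out Myh1, a skeletal muscle myosin of which 4 of 5 probe sets were above background in these livers, with means of up to 11.49. With Myh1 in the list the level was 9.25, and all 10 genes lay above it, against 16.1% of named genes. Hepatocyte markers were above background for 6 of 6 genes with a probe set, led by albumin (Alb) at 15.06 ± 0.02 (SD, n = 4). The 4 arrays had medians of 8.11, came from 1 lot and were scanned on 1 day. Each was processed on its own module of 1 station, modules 1 to 4, so module and rat cannot be told apart.

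Probe sets with values equal to within 0.001 on all 4 arrays, called flat, carry no information on the rats. Of the 5282 named genes above background, 1862, or 35.3%, were flat, and why was not tested. Hyou1 and Canx were flat in their brightest probe set, so 8 of the 10 genes could be compared between rats. In these 8 the signal differed by small amounts. The median SD over the 4 rats was 0.0845 log2 units, against 0.0562 over the 3420 named genes above background and not flat. The median ratio of the highest to the lowest rat was 1.14-fold, against 1.09-fold over those named genes. With replicate 1 left out, the median SD was 0.0501 against 0.0500, so the excess over other genes rests on that rat. It also rests on the scale, since it was 0.0802 against 0.0822 relative to the hybridisation spike controls. These are transcripts added in equal amount to every array. In the deposited values of all rats, but with Myh1 in the background list, the median SD was 0.0845 against 0.0788. That list leaves the dimmer named genes out, so the excess was smaller beside brighter genes.

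Hspa5 encodes BiP, the Hsp70 chaperone of the endoplasmic reticulum, which also holds the stress sensors inactive. Its signal was 11.50 in replicate 1, 11.91 in replicate 2, 11.93 in replicate 3 and 11.84 in replicate 4. Replicate 1 was the low rat, and the other 3 lay within 0.08 log2 units of one another. The mean was 11.79 ± 0.20 (SD, n = 4), and replicate 1 fell short of the mean of the others by a difference of -0.40, or 0.759-fold. The SD of Hspa5 exceeded that of 92.0% of the named genes above background and not flat, the highest share among the 8 genes.

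Hsp90b1, or GRP94, is the Hsp90 of the endoplasmic reticulum and folds a narrow set of secreted and membrane proteins. Its signal was 11.65 in replicate 1, 11.82 in replicate 2, 11.95 in replicate 3 and 11.81 in replicate 4. Replicate 1 was again lowest and replicate 3 highest, with a mean of 11.81 ± 0.12 (SD, n = 4). The difference of replicate 1 from the others was -0.21, and the other 3 rats spanned 0.14. Dnajc3, or p58IPK, a J-domain co-chaperone that stimulates BiP, had signals of 10.23, 10.42, 10.35 and 10.41 in replicates 1 to 4. Its mean was 10.35 ± 0.09 (SD, n = 4), and the difference of replicate 1 was -0.16. Hyou1, a large Hsp70 relative that exchanges nucleotide on BiP, had a flat brightest probe set at 9.66. Its other probe set read 8.67, 8.55, 8.68 and 8.65 in replicates 1 to 4, lowest in replicate 2 and 0.04 higher in replicate 1 than in the mean of the others. All 3 genes of this class that could be compared had their lowest signal in replicate 1, or 2 of them (Hspa5 and Hsp90b1) relative to the spike controls, while the informative Hyou1 probe set did not.

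Of the lectin chaperones, Calr gave no such difference, and the probe sets of Canx differed among themselves. Calr, the soluble lectin chaperone that also stores calcium, had signals of 12.07, 12.11, 12.02 and 12.09 in replicates 1 to 4. Its lowest rat was replicate 3, and its mean was 12.08 ± 0.04 (SD, n = 4). The difference of replicate 1 from the others was -0.01, inside their range of 0.09. Canx, the membrane-bound lectin chaperone, was flat at 10.70 in its brightest probe set. A dimmer one read 10.23, 10.31, 10.34 and 10.27 in replicates 1 to 4, lowest in replicate 1. The third read 10.11, 10.06, 10.01 and 10.11, lowest in replicate 3. The 2 probe sets of Canx that were not flat thus disagreed on which rat was lowest, at differences of replicate 1 of -0.07 and 0.05.

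All 4 disulfide isomerases were lowest in replicate 1 in the deposited values, though relative to the spike controls only Pdia4 was. Pdia4, or ERp72, which binds other chaperones in large complexes, had signals of 10.53, 10.67, 10.84 and 10.78 in replicates 1 to 4. Its mean was 10.71 ± 0.14 (SD, n = 4), with a difference of replicate 1 of -0.23, the largest of the 4 isomerases. Pdia6 had 11.46, 11.62, 11.52 and 11.61, with a mean of 11.55 ± 0.08 (SD, n = 4). Replicate 1 differed from the others by -0.13 in Pdia6, and the other 3 rats spanned 0.10.

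Pdia3, or ERp57, works with calnexin and calreticulin on glycoproteins. Its brightest probe set read 11.80, 11.87, 11.99 and 11.84 in replicates 1 to 4, with a mean of 11.88 ± 0.08 (SD, n = 4). Replicate 3 stood highest, and the difference of replicate 1 from the others, -0.10, was smaller than their range of 0.15. The other probe set of Pdia3, at 8.40 ± 0.07 (SD, n = 4) and 0.16 above the background level, was lowest in replicate 2 and highest in replicate 3. P4hb, the main protein disulfide isomerase and a subunit of collagen prolyl hydroxylase, had signals of 12.30, 12.41, 12.35 and 12.39. Its mean was 12.36 ± 0.05 (SD, n = 4), and replicate 1 differed by -0.09 from rats that spanned 0.06.

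**Figure D2:**
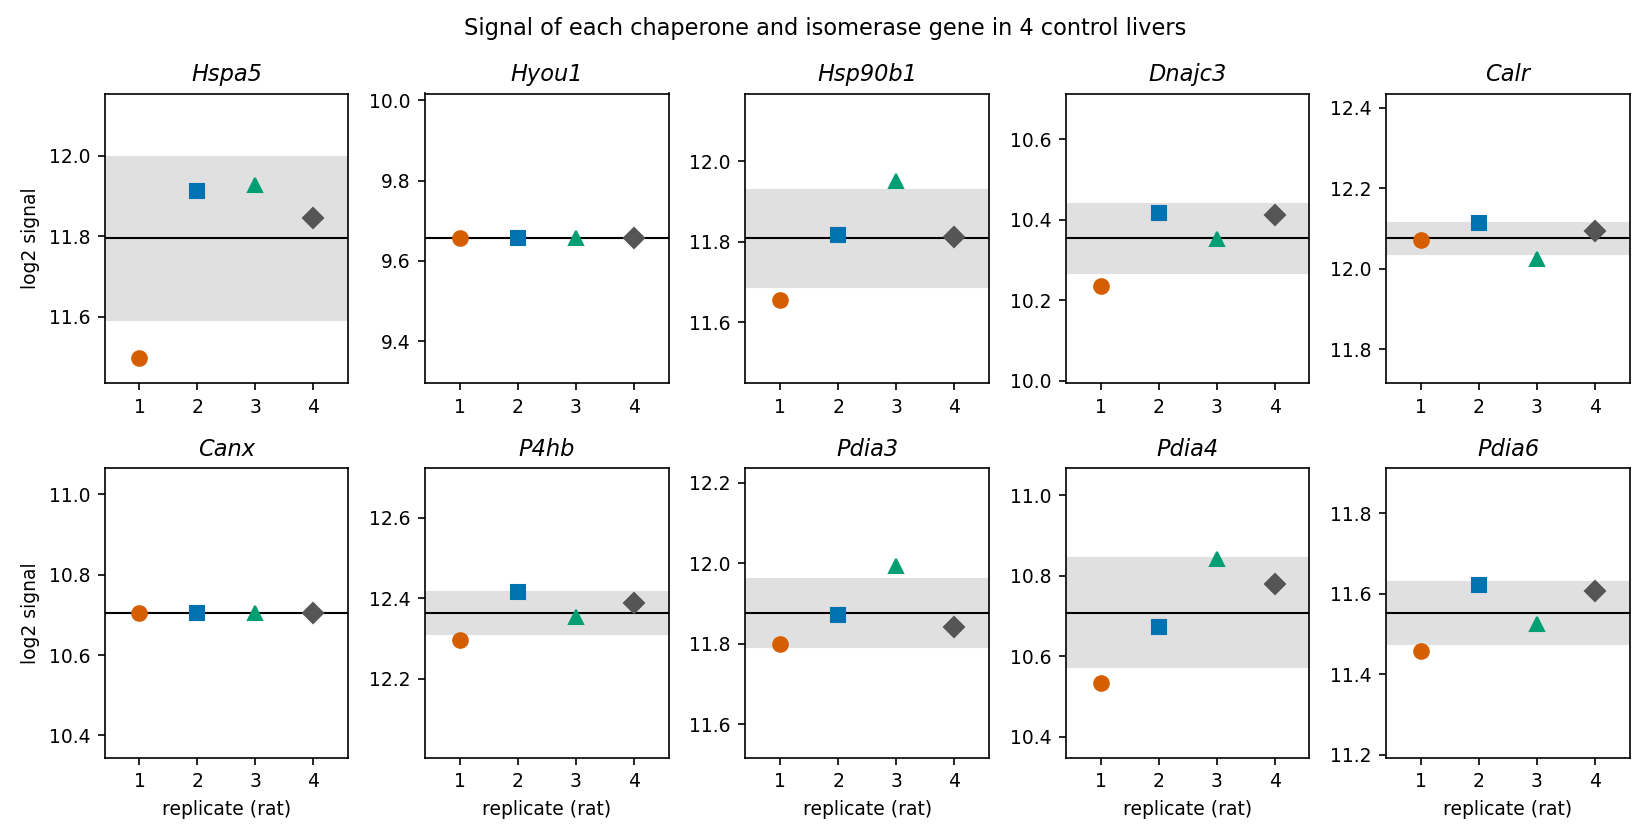
Log2 signal (vertical axis) of each of the 10 genes in the 4 control rats (horizontal axis), for the brightest probe set; the line is the mean, the grey band 1 SD on either side, and every panel spans the same range of log2 units. Replicate 1, the orange circle, is lowest in Hspa5, Hsp90b1, Dnajc3, P4hb, Pdia3, Pdia4 and Pdia6, of which only Hspa5, Hsp90b1 and Pdia4 stay so relative to the spike controls, and Hyou1 and Canx are flat.

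**Figure D3:**
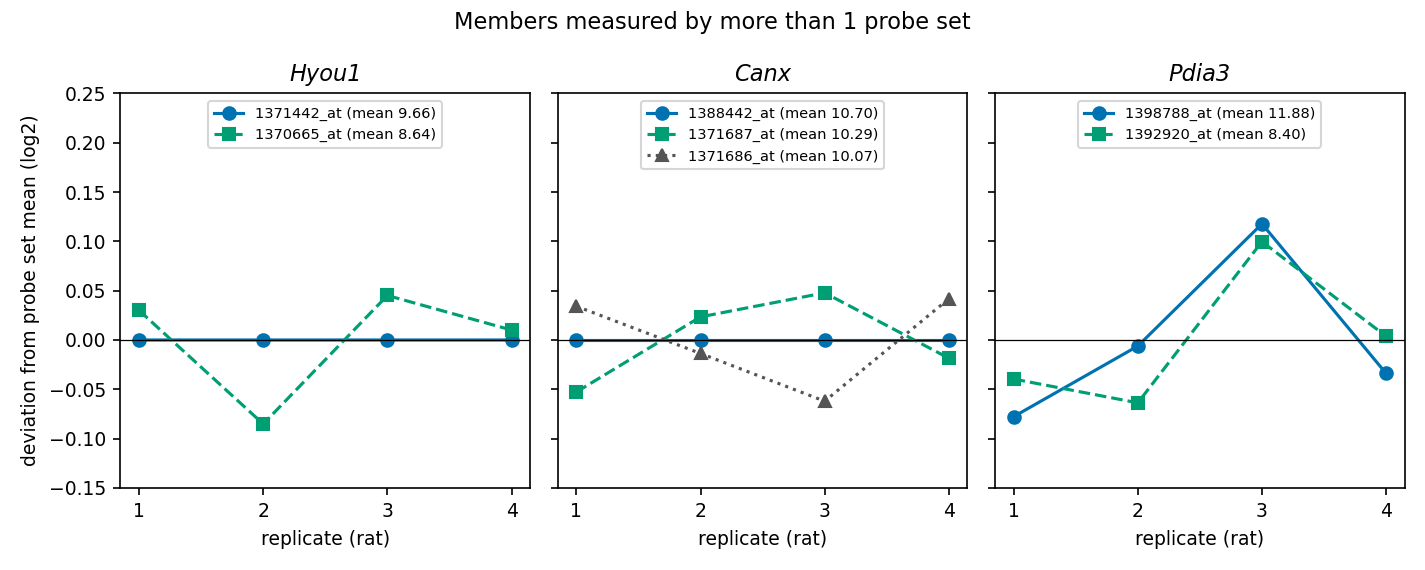
Deviation of each array from the mean of its probe set, in log2 units, against the rat, for the 3 genes with more than 1 probe set. The brightest probe sets of Hyou1 and Canx stay at 0, the informative probe sets of Canx go opposite ways, and both probe sets of Pdia3 are highest in replicate 3.

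Over the 8 genes, 7 were lowest in replicate 1, against 29.5% of the named genes above background and not flat. The eighth, Calr, was lowest in replicate 3, against 18.5%, and none was lowest in replicate 2, against 28.7%, or in replicate 4, against 23.3%. All 8 lay below the mean of the other rats in replicate 1 (7 relative to the spike controls, without Calr), against 52.8% of those genes, and 6 of the 8 did so by over 0.1 log2 units, against 15.4%. Relative to the spike controls 3 did so (Hspa5, Hsp90b1 and Pdia4), against 6.26%. The median difference of replicate 1 was -0.14, against -0.00 over all those genes. The highest rat was replicate 2 in 4 genes (Dnajc3, Calr, P4hb and Pdia6), against 21.7% of those genes. It was replicate 3 in the other 4 (Hspa5, Hsp90b1, Pdia3 and Pdia4), against 32.9%, and in no gene replicate 1, against 24.7%, or replicate 4, against 20.8%. Over all 14 probe sets, of which 12 were not flat, 8 were lowest in replicate 1, against 29.3% of 3814 named probe sets. These counts describe 4 rats, and the low signal in replicate 1 was known for a wider list of chaperones before the 10 genes were described.

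Part of this count depends on the scale. Relative to the spike controls, 3 of the 8 genes were lowest in replicate 1 (Hspa5, Hsp90b1 and Pdia4), against 7.89% of the named genes above background and not flat. On that scale the difference of replicate 1 was -0.31 for Hspa5, -0.15 for Pdia4, -0.12 for Hsp90b1 and -0.08 for Dnajc3. It was -0.04 for Pdia6, -0.02 for Pdia3, -0.01 for P4hb and 0.08 for Calr, while the median of those named genes was 0.08. The median of the 8 genes was -0.06, which is -0.14 relative to the named genes. Centring shifts all genes of an array alike, so this last value equals that of the deposited values by construction. The spike controls had means of 10.24, 10.26, 10.38 and 10.35 in replicates 1 to 4. For beta-actin, the 3′ probe set read higher than the 5′ one by 0.85 in replicate 1 and by 0.54 to 0.66 in the others, and for Gapdh this difference was 0.48 in replicate 1 and 0.52 to 0.54 in the others. The part of these array measures in the result was not tested.

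Markers of other cells were read beside these values, where 50.7% of all named genes were above background. Markers of Kupffer cells, the resident macrophages of liver, were above background for 6 of 6 genes with a probe set, and their summed log2 signal ran from 58.3 in replicate 1 to 59.9 in replicate 2. Their median difference of replicate 1 was -0.20 over 5 genes that were not flat, and 3 of the 5 (C1qa, C1qc and Cd68) were lowest there, against 29.5% of named genes. C1qb was lowest in replicate 3, with a difference of 0.03, and Clec4f in replicate 4. Endothelial markers had 3 of 5 genes above background and summed to between 43.3 and 43.8, lowest in replicate 1. Of the 2 above background and not flat, Fcgr2b was lowest in replicate 1 and Lyve1 in replicate 2. Stellate cell markers had 4 of 8 and summed to between 65.6 and 69.7, lowest in replicate 3. Hepatocyte markers summed to 80.6 in replicates 1 and 2, 80.9 in replicate 4 and 81.7 in replicate 3, and 2 of 6 (Apoa1 and Ttr) were lowest in replicate 1, against 3 in replicate 2. Red cell markers summed to between 27.5 and 28.5, highest in replicate 1. The part of these cells in the result was not tested. Exocrine pancreas, a tissue rich in the same chaperones, had 2 of 9 markers above background, Cela1 at 9.49 and Cpb1 at 8.35. The 9 markers summed to between 71.5 and 71.9, with amylase (Amy2a3) at 6.99 and trypsinogen (Prss1) at 7.68, below background. Bile duct markers had 0 of 4 above background, with a sum of 31.7 to 31.9. Lymphocyte and plasma cell markers had 0 of 5, with a sum of 38.6 on every array.

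The other genes of the pathway were taken from fixed lists. Of 36 other folding enzymes of the endoplasmic reticulum with a probe set, 32 were above background, against 50.7% of named genes. Of 23 that were not flat, 10 were lowest in replicate 1, against 29.5%. Their median difference of replicate 1 was -0.08, with a range from -0.54 to 0.81. Relative to the spike controls the median was 0.01, against 0.08 over named genes, and 5 of the 23 were lowest in replicate 1, against 7.89%. Manf, a secreted stress-induced factor of the endoplasmic reticulum, had signals of 10.27, 10.85, 10.94 and 10.63 in replicates 1 to 4, a difference of -0.54. Ppib, the cyclophilin that isomerises prolines there, had 10.92, 11.24, 11.30 and 11.36, a difference of -0.38. Pdia5 went the other way, with 9.87 in replicate 1 and 9.24, 8.97 and 8.98 in the others, a difference of 0.81. Fkbp2, another proline isomerase, read 10.63, 10.62, 10.68 and 10.84, so its lowest rat was replicate 2. The folding enzymes thus included genes on both sides in replicate 1, with the disulfide isomerase Pdia5 farthest on the high side.

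Degradation genes, which return misfolded proteins to the cytosol, were above background for 14 of 14 genes, against 50.7% of named genes. Of 9 that were not flat, 4 were lowest in replicate 1, against 29.5%. Their median difference was -0.07, or 0.01 relative to the spike controls, where that of named genes was 0.08. On that scale 2 of the 9 were lowest in replicate 1, against 7.89%. Edem1, a mannosidase-like protein that marks misfolded glycoproteins, read 9.22, 9.70, 9.55 and 9.65, a difference of -0.41. The ubiquitin ligase Syvn1 read 8.85, 9.25, 8.92 and 9.06, also lowest in replicate 1. Vcp, the ATPase that extracts these proteins, read 10.82, 10.90, 10.88 and 10.68, lowest in replicate 4, and Derl1 and Sel1l were flat at 10.00 and 9.78.

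Sensors and transcription factors of the unfolded protein response had 8 of 14 genes above background, against 50.7% of named genes. Of 5 that were not flat, 1 was lowest in replicate 1, against 29.5%. Their median difference was -0.01, or 0.08 relative to the spike controls, where that of named genes was also 0.08. Xbp1, the factor activated by splicing, read 10.92, 10.97, 11.03 and 10.91 in replicates 1 to 4, lowest in replicate 4. Herpud1, a membrane protein of the degradation complex and a known target of the response, read 9.70, 9.81, 10.14 and 10.08, lowest in replicate 1. Atf4, the factor that follows eIF2 phosphorylation, read 10.45, 9.92, 10.56 and 10.33, lowest in replicate 2. Cebpb, a factor of liver gene expression, read 9.67, 9.27, 9.84 and 9.66, again lowest in replicate 2. The stress-induced Ddit3, or CHOP, was at 7.77 ± 0.02 (SD, n = 4) and Atf3 was flat at 7.66, both below background. Trib3, Chac1 and Ppp1r15a of the same list were above background, flat at 8.77, 8.50 and 8.28. Ddit3, Atf3, Trib3, Chac1 and Ppp1r15a were singled out after their values were seen.

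Chaperones of other compartments were set beside the 8 genes. Of 26 cytosolic chaperones with a probe set, 22 were above background, against 50.7% of named genes. Of 16 that were not flat, 1 (Hsph1) was lowest in replicate 1, against 29.5%. Their median difference of replicate 1 was 0.04, or 0.13 relative to the spike controls, where that of named genes was 0.08. Replicate 3 was highest in 10 of the 16, against 32.9% of named genes. Hsp90ab1, the constitutive cytosolic Hsp90, read 11.59, 11.47, 11.70 and 11.48 in replicates 1 to 4. The chaperonin subunit Tcp1 read 10.57, 10.53, 10.59 and 10.46. The Hsp90 co-chaperone Ptges3 read 10.65, 10.40, 10.60 and 10.46, highest in replicate 1. Hspb1, a small heat shock protein, had the largest SD of the list, with 8.98, 8.23, 8.59 and 8.74, highest in replicate 1. Hsph1 read 8.84, 9.08, 9.30 and 8.94. The cytosolic list thus had 1 of 16 genes lowest in replicate 1, and 1 relative to the spike controls. Among the 8 genes it was 7, or 3 relative to the spike controls, and this difference between lists was not tested.

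Mitochondrial chaperones and proteases were above background for 9 of 9 genes, against 50.7% of named genes. Of 7 that were not flat, 2 were lowest in replicate 1, against 29.5%. Their median difference was -0.00, or 0.08 relative to the spike controls, where that of named genes was also 0.08. The chaperonins Hspd1 and Hspe1 read 12.03 and 11.26 in replicate 1, where Hspd1 was highest. Hspa9, the mitochondrial Hsp70, had a mean of 10.39 ± 0.03 (SD, n = 4). Trap1, the mitochondrial Hsp90, had a difference of replicate 1 of -0.30. Secreted plasma proteins, the main load of the folding machinery, were above background for 22 of 22 genes, against 50.7% of named genes. Of 15 that were not flat, 5 were lowest in replicate 1, against 29.5%. Their median difference was 0.01, or 0.09 relative to the spike controls, where that of named genes was 0.08. Transthyretin (Ttr) was at 14.32 ± 0.02 (SD, n = 4) and haptoglobin (Hp) at 14.21 ± 0.03 (SD, n = 4). Apoa1, the protein of high density lipoprotein, read 12.34, 12.98, 13.03 and 12.92, and Apoa2 had a difference of replicate 1 of -0.21. The share of secreted proteins lowest in replicate 1 was thus near that of named genes, while 8 of the 15 were lowest in replicate 3, against 18.5%. Apoa1 had the largest difference of replicate 1 in the list.

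**Figure D4:**
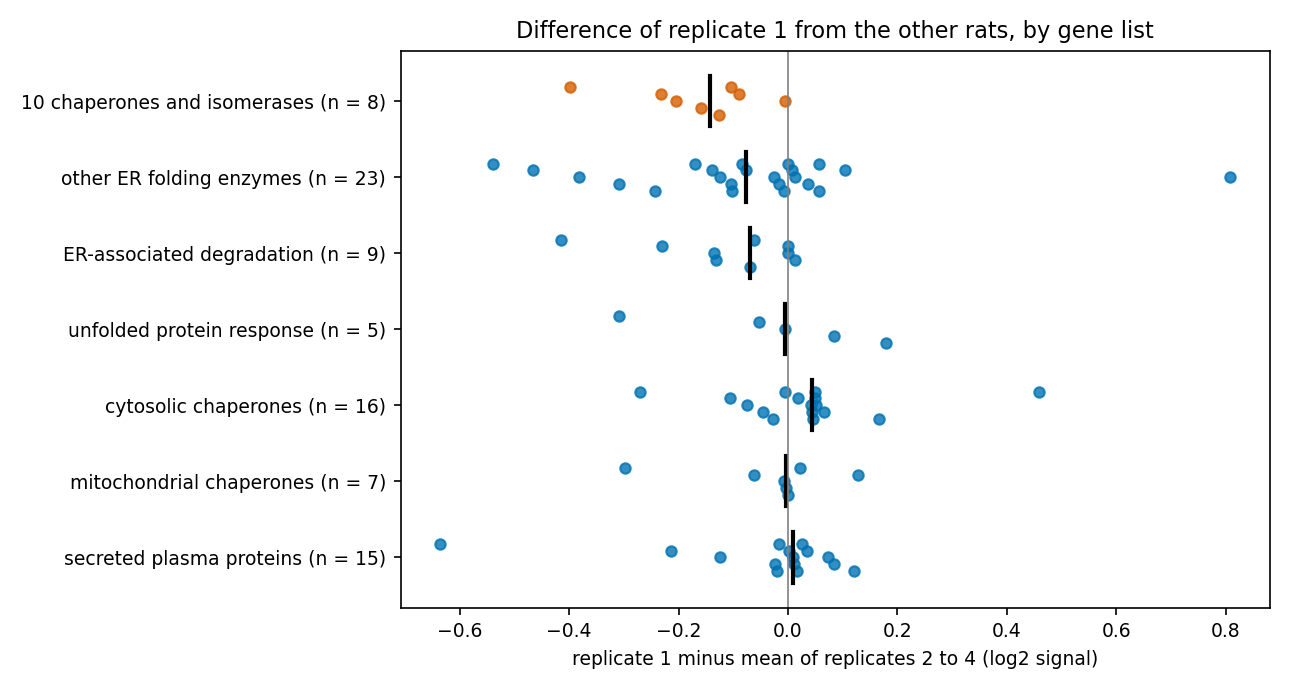
Replicate 1 minus the mean of replicates 2 to 4, in log2 signal, for each gene above background and not flat (points) and the median (bar), by gene list; ER is endoplasmic reticulum. The 8 chaperones and isomerases run from -0.40 to -0.01 and the cytosolic chaperones have a median of 0.04; relative to the spike controls every point would lie 0.0830 higher, which puts Calr above 0.

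The genes with and without a match to the stress response element were set side by side. Of the 6 genes with an element, 4 were not flat, and 3 of these were lowest in replicate 1, against 29.5% of named genes, with differences from -0.40 to -0.01. Relative to the spike controls 2 were, Hspa5 and Hsp90b1, against 7.89%. P4hb and Pdia4, with no match in their windows, were both lowest there in the deposited values, with differences of -0.09 and -0.23, and relative to the spike controls only Pdia4 was. Beyond the 10 genes, 32 genes carried either form, of which 17 were on the array. Of these 17, 10 were above background, against 50.7% of named genes, and 9 of the 10 were not flat. Of these 9, 4 were lowest in replicate 1, against 29.5% of named genes, and relative to the spike controls 1 was, against 7.89%. Their median difference was -0.05, or 0.03 relative to the spike controls, where that of named genes was 0.08. Besides Xbp1 and Herpud1 they included 3 of the folding enzymes. Ero1b, an oxidase that recharges disulfide isomerases, had signals of 9.20, 9.47, 9.79 and 9.26 in replicates 1 to 4. Creld2, a disulfide isomerase-like protein, read 8.97, 9.41, 9.22 and 9.03, lowest in replicate 1. The BiP co-chaperone Dnajb11 read 9.34, 9.26, 9.29 and 9.31, highest in replicate 1. Genes with the element were thus found on both sides in replicate 1.

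The genes whose pattern over the 4 arrays was nearest to that of the 8 genes were found by Euclidean distance between deviations from each gene's mean. The mean deviations of the 8 genes were -0.12, 0.04, 0.05 and 0.03 in replicates 1 to 4. Among 3412 other genes, the nearest 6 were Sgta, a co-chaperone of cytosolic Hsp70 (distance 0.0166), Zfp692 (0.0199), the ribosomal protein Rps9 (0.0206), the respiratory chain subunit Cox6a1 (0.0216), the splicing factor Phf5a (0.0222) and Pcmtd1 (0.0222). The median distance of all genes searched was 0.169. Sgta read 8.90 in replicate 1 and 9.07 in each of the others, and Rps9 11.33 against 11.46 to 11.48. None of the 6 is a folding enzyme of the endoplasmic reticulum, and they were chosen for this likeness over 4 arrays.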

How the data were processed

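Liver RNA of 4 untreated rats was measured on 4 arrays. The authors deposited 1 log2 signal per array for each of 15923 probe sets. The submitters' processing notes list R 2.4.1, affy 1.12.2, GCRMA and RMA with neither role nor order, so which of the methods gave the values is not given in the sources used here. Medians hardly differ between arrays, so a difference in total RNA would not show. The scanner settings name the array type RAE230A, and the labels' protocol RAE230-2.

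Of the probe sets, 12789 carried 1 gene symbol, 312 several and 2822 none. Only the first were named, and 12754 were matched by gene number to GRCr8, used for names and promoter windows. The members and lists were chosen with earlier results of these data known. The text names all members, from each list the 3 genes with the highest mean and the 2 with the largest SD, and the nearest 6 genes. Genes named outside this rule (cell markers, Myh1, Ddit3, Atf3, Trib3, Chac1, Ppp1r15a and the element carriers Ero1b, Creld2 and Dnajb11) were chosen after their values were seen. No genes were tested for a difference between groups, since there was 1 group, and the number of arrays limits the precision. Only the gaps flagged below were set beside a chance rate. The calculation of differences was tested on simulated data. Python 3.11.15, numpy 2.4.6 and pandas 2.3.3 were used. Alternatives covered the background level, the probe set, flatness, the scale and leaving out each rat.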

Additional observations from a re-analysis of the deposited data

Results flagged for a closer look

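Among 44 sets of 4 values examined, 5 had 1 rat far from the other 3, measured as a large gap relative to the range, where about 5% would be so by chance. All 5 concerned replicate 1. The mean deviation of the 8 chaperones and isomerases was -0.12 there, against 0.03 to 0.05 in the others. Apoa1 was at 12.34, against 12.92 to 13.03. Sgta was at 8.90 against 9.07, Rps9 at 11.33 against 11.46 to 11.48, and Cox6a1 at 10.82 against 10.95 to 10.98. These last 3 genes were chosen because they resembled the mean of the 8 genes, so they add no independent case. Without the 6 genes chosen in this way, 2 of 38 sets remained, or 5.26%, namely Apoa1 and the mean of the 8 genes. All sets share the same 4 rats, and the low replicate 1 of chaperones was known beforehand. No conclusion on chance is therefore drawn from these shares.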

How the results depend on the processing

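All 10 genes were above background under every alternative tried, with the 90th or 98th percentile, with Myh1, with medians over probe sets in place of the brightest, without suffixes s, x and a, and without each rat. The count of genes lowest in replicate 1 was 3 of 8, against 7.89% of named genes, when arrays were centred on the spike controls. Those controls had means of 10.24 and 10.26 in replicates 1 and 2, and 10.38 and 10.35 in replicates 3 and 4. The count was 8 of 12 over all probe sets, against 29.3% of named probe sets. With flat probe sets kept it was 8 of 10, against 29.5% of named genes not flat. That count includes the flat Hyou1, which carries no information on the rats. With medians over probe sets the count was 8 of 10, against 29.7%. In the remaining settings with all rats it was 7 of 8, against 27.2 to 31.6%. It ran from 7 to 8 of 8 without each of replicates 2, 3 and 4, against 36.3 to 39.0% of named genes. The median difference of replicate 1 was -0.06 on the spike scale and lay between -0.16 and -0.13 without replicates 2, 3 or 4. The median SD was 0.0501 without replicate 1 and 0.0967 without replicate 2, and the median range was 0.189. Of 48 differences of single genes under other scales or without a rat, 3 changed sign, all of Calr. Signal over background limits the dimmer probe sets, such as that of Pdia3 at 0.16 above the level. No paired analysis was possible because there was 1 group.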
